A study of Homo sapiens with 2 samples.

Results

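The nuclear tRNA genes of the human genome were described by where transcription starts were called at them in HUDEP-2 cells. Members were all 429 entries of type tRNA on chromosomes 1 to 22 and X in the RefSeq gene table, among 58419 gene entries on these chromosomes. A tRNA gene counted as called when at least 1 start ran towards its body from no more than 200 bp away from either end, and 200 of the 429 were called (46.6%, 95% Wilson interval 42.0 to 51.3), against 16.4% of all gene entries by the same rule. PRO-cap, a run-on assay that reads the 5' ends of nascent RNA, was applied to 2 biological replicates of wild-type HUDEP-2, an immortalised human erythroid progenitor line, with no treatment and no second group. The deposited lists hold 26395 single-base calls with no replicate named and a score of 0 for each. The depth behind a call is therefore unknown, no spread between replicates can be given and no test over samples was possible. Intervals given with shares are 95% Wilson intervals, which include the counting error alone. By the same rule all 9 erythroid markers checked (among them GATA1, KLF1, HBB, ALAS2, AHSP, EPOR, TFRC and SLC4A1) were called, and none of 5 markers of other lineages (among them CD3E, MPO, PF4 and ALB).

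Transfer RNA genes are transcribed by RNA polymerase III from promoters that lie inside the gene. The factor TFIIIC binds an A box and a B box within the transcribed sequence and places TFIIIB just upstream, where the polymerase starts. The first transcript carries a short 5' leader that RNase P removes and a 3' trailer that ends in a run of T and is cut by ELAC2, and its 5' end is a triphosphate and not the methylated cap of messenger RNA. In the symbols used here the letter after TR is the amino acid, the 3 bases after the hyphen are the anticodon, the next number is the family of genes with one mature sequence, and the last is the copy. X stands for the initiator methionine tRNA and U for selenocysteine.

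To show what a called start looks like in sequence, 7 stretches are printed that lie within RefSeq promoter windows of neighbouring genes (GRCh38.p14, the hg38 build of the calls). Each is 60 bases long, runs 5' to 3' in the direction of the call and has the called base as letter 21. Capitals mark the bases of the tRNA gene, and the lower-case letters from letter 21 to the capitals are termed the leader here. Leader length is thus the distance from the call to the annotated gene, and the transcripts themselves were not measured.
TRF-GAA1-5, promoter of LOC124903191, chr13:94549687-94549746, minus strand: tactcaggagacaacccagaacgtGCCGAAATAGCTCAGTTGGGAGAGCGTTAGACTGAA
TRG-CCC2-2, promoter of LOC100287175, chr16:636772-636831, minus strand: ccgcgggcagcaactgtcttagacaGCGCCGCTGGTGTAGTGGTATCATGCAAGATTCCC
TRP-TGG3-2, promoter of ANG, chr14:20683991-20684050, plus strand: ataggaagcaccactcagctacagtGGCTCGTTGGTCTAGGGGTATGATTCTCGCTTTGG
TRR-ACG2-1, promoter of LIMD1-AS1, chr3:45689039-45689098, minus strand: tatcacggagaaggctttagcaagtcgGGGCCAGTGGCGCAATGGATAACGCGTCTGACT
TRT-AGT1-3, promoter of LOC124904691, chr19:33177031-33177090, plus strand: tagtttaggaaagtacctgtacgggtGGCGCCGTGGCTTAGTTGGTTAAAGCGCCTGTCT
TRT-TGT6-1, promoter of TRIM7-AS2, chr5:181191727-181191786, minus strand: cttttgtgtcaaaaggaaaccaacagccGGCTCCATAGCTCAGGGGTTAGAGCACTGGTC
TRH-GTG1-9, promoter of SHF, chr15:45201112-45201171, plus strand: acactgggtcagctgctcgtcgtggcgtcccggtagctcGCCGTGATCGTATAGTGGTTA

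The leader was 4 bases at TRF-GAA1-5 and 8 bases at TRT-TGT6-1, whereas at TRH-GTG1-9 it was 19 bases. The called base could be read for 10 called tRNA genes, and it was A in 7 and C in the other 3. In all 10 the first base of the gene was G. A pyrimidine before and a purine at the called base, a common form of initiation site, stood at 4 of the 10. The motif GTTCNANNC, which covers the core of the B box, was searched on both strands. It lay inside each of the 14 tRNA genes that fit whole into a window, against 7.48% of all 35116 promoter windows of 300 bases. The motif strand equalled the call strand at the 6 of these 14 that were called. Called and uncalled genes alike held the motif, which is part of the tRNA sequence, so it does not separate them. The windows are longer than the genes, so their share is not a like-for-like background. A match is a description of letters and not of binding.

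Starts at tRNA genes were placed with little scatter. The nearest call lay a median of 6 bases before the gene, with quartiles of 5 and 7 bases, and 190 of the 200 called genes (95%, 91.0 to 97.3) had it 2 to 10 bases before. In 170 genes it lay 4 to 8 bases before. Among called gene entries of all kinds 6.36% had their nearest inward call 2 to 10 bases before the gene. Counted over called and uncalled genes together, 44.3% of the 429 tRNA genes and 1.04% of all 58419 gene entries did. Of all protein-coding genes 1.51% did, which is 3.96% (3.55 to 4.43) of the called ones, with a median of 3 bases inside the gene. Called snoRNA genes had a median at the first base of the gene and called snRNA genes 1 base before it. The call lay 2 to 10 bases before the gene at 9.20% (4.73 to 17.1) of called snoRNA genes. For called snRNA genes this share was 28.1% (15.6 to 45.4). These classes share the calls and the table. The polymerase differs for coding genes, whereas the U6 genes among the snRNA genes are also transcribed by polymerase III. The annotation differs too. The tRNA entries, 70 to 108 bases long, begin after the leader, whereas coding entries begin at an annotated transcript start. How much of the difference in position follows from this was not tested. The difference between these classes and the tRNA genes was not tested.

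**Figure D1:**
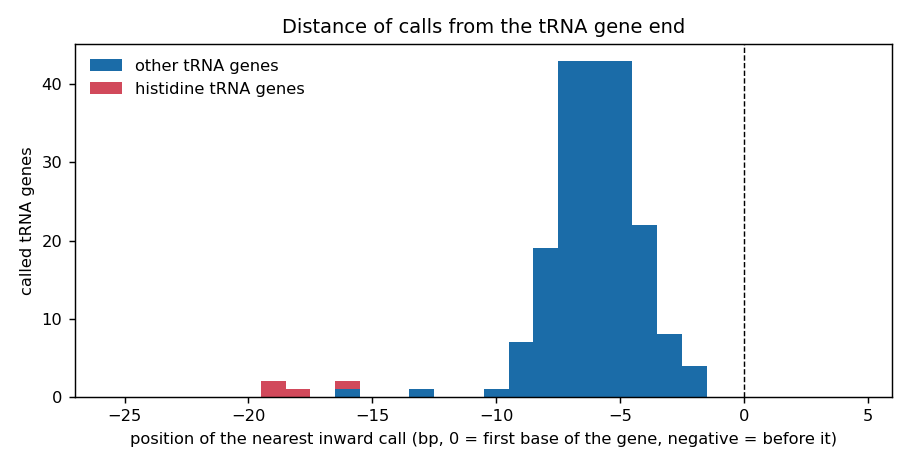
Histogram of the nearest inward call over called tRNA genes, as bases from the first base of the gene (0, dashed line) on the x axis and number of genes on the y axis, with histidine tRNA genes in red. Most genes lie 2 to 10 bases before the gene and 4 histidine genes lie 16 to 19 bases before it. The 4 genes outside the plotted range are TRE-TTC1-2, TRG-TCC4-1, TRH-GTG1-1 and TRI-TAT2-1.

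The 5 genes at the median position that come first along the genome were TRR-TCT1-1, called at 93847567 of chromosome 1, an unnumbered valine CAC gene at 145157157 to 145157229, TRG-TCC2-1, TRX-CAT1-1 and TRL-CAG1-6. The shortest leaders, of 2 bases, were at TRL-TAA1-1, TRL-CAG2-1, TRS-GCT3-1 and TRW-CCA2-1, chosen after their values were seen. Leaders also differed a little between amino acids. The 8 called aspartate genes had leaders of 6 to 9 bases with a median of 8, the 15 valine genes 5 to 9 with a median of 7, and the 17 serine genes 2 to 8 with a median of 5. These ranges overlap, so aspartate, valine and serine are not separated by leader length.

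Histidine tRNA genes did not share the usual position. All 9 belong to one family, TRH-GTG1, and 5 were called (55.6%, 26.7 to 81.1). TRH-GTG1-5 on chromosome 6 and TRH-GTG1-9 on chromosome 15 were called 19 bases before the gene, TRH-GTG1-7 18 bases and TRH-GTG1-8 16 bases before it. None of the 5 had its nearest call 2 to 10 bases before the gene, whereas 190 of the 195 other called genes had it there. Only 2 called genes of other amino acids lay 11 to 19 bases before, TRQ-TTG3-3 at 16 and TRP-AGG2-8 at 13 bases. Among the 4 long histidine leaders, 3 lie within a single stretch of chromosome 15, around the gene SHF, so that they are neighbours and copies and not independent cases. The fifth, TRH-GTG1-1, had a reverse call 59 bases inside its upper end at 146038056 of chromosome 1 and a forward call just outside that end, 60 bp away. The histidine genes were singled out after their values were seen.

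A few other called genes had their call far from the usual position. The call of TRE-TTC1-2, a glutamate gene inside ELF1, lay 170 bases before the gene, and that of TRG-TCC4-1, a glycine gene on chromosome 1, 149 bases before it. At TRI-TAT2-1 the call was 41 bases inside the gene. Which transcript these calls begin was not tested. Only TRS-AGA4-1 and TRT-AGT1-3 had inward calls at both ends. At TRS-AGA4-1 one lay 7 bases before the upper end (27553501 of chromosome 6) and the other 65 bases inside the lower end. TRT-AGT1-3 had one 6 bases before its lower end (33177051 of chromosome 19) and one 74 bases outside its upper end. Each of the other 198 had a single inward call, and no call was shared by 2 tRNA genes. Calls of 1 strand are at least 251 bp apart in the lists, which leaves little room for a second call at the same end.

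tRNA genes were called more often than the average gene. Over all gene entries 16.4% had an inward call by the same rule, against 46.6% of tRNA genes, 38.2% (37.5 to 38.9) of 19821 protein-coding genes, 21.5% (15.6 to 28.7) of 149 snRNA genes, 7.66% (7.28 to 8.06) of long noncoding RNA genes and 7.31% (5.97 to 8.93) of 1190 snoRNA genes. The interval of the tRNA genes does not meet that of any of these classes. New tRNA transcripts lack the cap of messenger RNA. How uncapped 5' ends were read beside capped ones is not given in the sources used here. Its part in these shares was not tested, so the classes may not be seen equally well. The gene table gives no strand for tRNA genes, so both ends were read, and 101 calls lay at the lower and 99 at the upper coordinate.

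Called genes were spread over most anticodons. At least 1 called gene was found for 46 of 49 anticodons. Of all anticodons 47 hold at least 3 genes, and 46.6% of all tRNA genes were called. A high count can arise from that share alone. The 3 without were glutamate CTC, with 0 of 8 genes (which allows up to 32.4%), selenocysteine TCA, with neither TRU-TCA1-1 on chromosome 19 nor TRU-TCA2-1 on chromosome 22 called, and tyrosine ATA, a single gene. The other glutamate anticodon, TTC, had 4 of 7 called. At the other end, all 6 threonine TGT genes were called (61.0 to 100), with leaders of 3 to 8 bases: TRT-TGT1-1 on chromosome 6 had 3, TRT-TGT4-1 and TRT-TGT5-1 on chromosome 14 had 5 each, TRT-TGT2-1 on chromosome 1 had 6, and TRT-TGT3-1 and TRT-TGT6-1 had 8 each. TRT-TGT genes spread over 4 chromosomes, and none of the 6 shares its family with another.

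By amino acid the called share ran from 0 of 2 for selenocysteine and 9.52% (2.65 to 28.9) of 21 asparagine genes to 85.0% (64.0 to 94.8) of 20 threonine genes and 87.5% (52.9 to 97.8) of the 8 initiator methionine genes. The initiator tRNA starts each protein, and of the 11 elongator methionine genes, which serve inside the chain, 3 were called (27.3%, 9.75 to 56.6), an interval that meets that of the initiator. Alanine, with 37 genes the largest class, had 7 called (18.9%, 9.48 to 34.2) and cysteine 6 of 29 (20.7%, 9.85 to 38.4). Proline had 14 of 20 called, arginine 69.2% and serine 65.4%, while leucine had 43.8% and glycine 40.0%. The intervals of most neighbours in this order overlap.

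**Figure D2:**
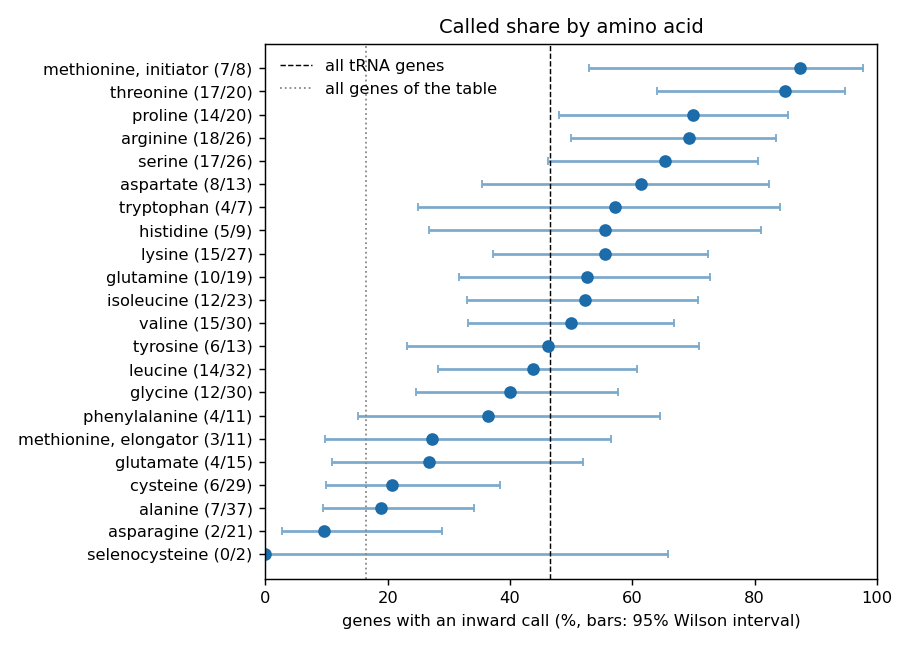
Percent of tRNA genes with an inward call by amino acid, with 95% Wilson intervals, called and total genes in brackets, a dashed line at 46.6% for all tRNA genes and a dotted line at 16.4% for all genes. Asparagine, alanine and cysteine lie left of the dashed line, and initiator methionine, threonine, proline and arginine lie right of it, all with intervals that do not reach it.

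The amino acids with the fewest calls, apart from selenocysteine, had most of their genes on chromosomes 1, 6 and 7. Of the alanine genes, 30 of 37 lay there with 2 called, against 5 of 7 elsewhere. For asparagine the counts were 0 of 17 there and 2 of 4 elsewhere, for cysteine 2 of 19 and 4 of 10, for glutamate 0 of 11 and 4 of 4, and for elongator methionine 0 of 8 and 3 of 3. Over all tRNA genes, 86 of 261 on these 3 chromosomes were called (33.0%, 27.5 to 38.9) and 114 of 168 on the others (67.9%, 60.5 to 74.5). Tyrosine ran the other way, with 4 of 4 on the 3 chromosomes and 2 of 9 elsewhere, and proline had 4 of 5 and 10 of 15. The 3 chromosomes were chosen after the values were seen.

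Genes of one family, which share a mature sequence, were often called in part. Of the 57 families with 2 or more genes, 14 had all members called, 17 none and 26 some. All 5 copies of TRI-AAT5 and all 5 of TRK-CTT2 were called, as were 7 of 8 of TRX-CAT1, whereas none of the 7 copies of TRE-CTC1 or the 5 of TRG-GCC1 was. These families were picked after their values were seen. Shares by copy number had overlapping intervals. Called were 44.2% (37.5 to 51.2) of 199 genes without a copy, 48.4% (38.5 to 58.4) of 93 genes in families of 2 to 4, and 51.2% (42.6 to 59.6) of 129 genes in families of 5 or more. Outside chromosomes 1, 6 and 7 these shares were 63.2% (51.4 to 73.7), 79.5% (65.5 to 88.8) and 64.3% (51.2 to 75.5). Counting each of the 256 families as 1 unit, 128 had a called member. Reads from identical copies can be hard to place, and how the authors treated them is not given in the sources used here, so the lack of a call at a copied gene is uncertain.

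Copies with the same gene sequence differed in their calls and in their flanks. For this reason 4 whole genes are printed, each with 20 bases of flank in lower case and the gene in capitals.
TRP-TGG3-2, called, promoter of ANG, chr14:20683996-20684107, plus strand: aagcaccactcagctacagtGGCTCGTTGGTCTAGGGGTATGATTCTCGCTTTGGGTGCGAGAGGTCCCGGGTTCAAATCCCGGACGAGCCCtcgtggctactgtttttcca
TRP-TGG3-5, not called, promoter of OR1F1, chr16:3188074-3188185, plus strand: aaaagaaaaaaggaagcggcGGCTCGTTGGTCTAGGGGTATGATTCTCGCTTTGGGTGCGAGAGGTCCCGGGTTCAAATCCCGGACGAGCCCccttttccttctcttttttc
TRH-GTG1-9, called, promoter of SHF, chr15:45201131-45201242, plus strand: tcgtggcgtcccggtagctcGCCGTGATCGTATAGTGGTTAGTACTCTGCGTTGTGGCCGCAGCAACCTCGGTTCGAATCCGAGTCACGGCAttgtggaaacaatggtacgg
TRH-GTG1-3, not called, promoter of LINC01731, chr1:148281345-148281456, plus strand: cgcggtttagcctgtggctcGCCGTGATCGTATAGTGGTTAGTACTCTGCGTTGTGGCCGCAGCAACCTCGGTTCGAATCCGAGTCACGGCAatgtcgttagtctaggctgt

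The 72 gene bases of the called TRP-TGG3-2, beside ANG on chromosome 14, equal those of the uncalled TRP-TGG3-5, beside OR1F1 on chromosome 16, while the 20 bases before the gene are equal at 6 positions. TRH-GTG1-9 and TRH-GTG1-3 again match at all 72 gene bases and at 9 of the 20 before it. With the internal promoter letters alike in each pair, the call differed between copies. Whether the flank or the placing of reads goes with this was not tested.

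Genes with a high family number in the symbol were seldom called. Of the 220 genes with a family number of 1 to 2, 125 were called (56.8%, 50.2 to 63.2), and of the 57 with a number of 7 or more, 4 were (7.02%, 2.76 to 16.7), namely TRA-AGC8-1, TRA-AGC11-1, TRC-GCA17-1 and TRY-GTA8-1. Numbers 3 to 4 had 51.1% and numbers 5 to 6 had 44.0%. Among genes without a copy the 7-or-more group had 3 of 43 called (6.98%, 2.40 to 18.6) and numbers 1 to 2 had 37 of 58 (63.8%). Of these 57 genes 48 lay on chromosomes 1, 6 and 7, with 3 called, and 9 lay elsewhere, with 1 called. The division by family number was made after the values were seen, and its overlap with the place of the genes was not separated further.

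**Figure D3:**
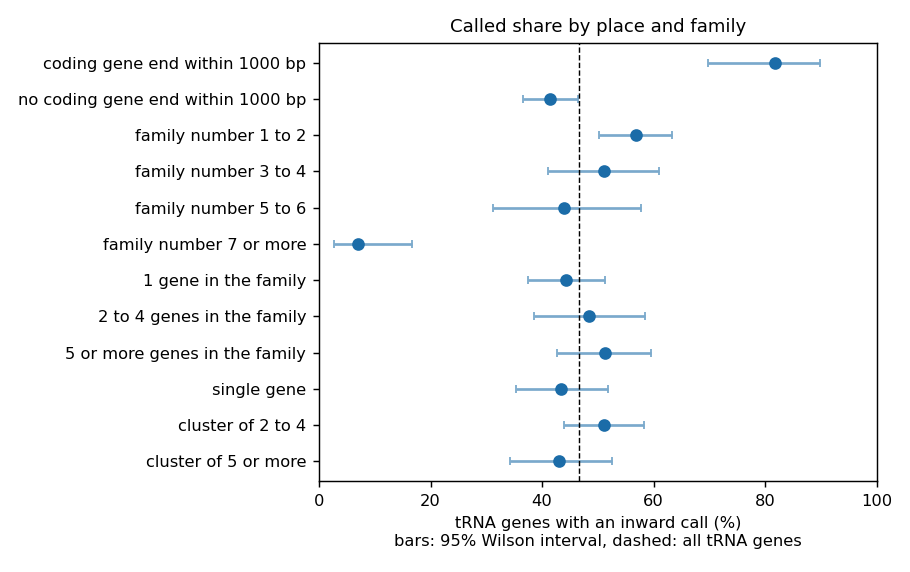
Percent of tRNA genes with an inward call (x axis) by distance to a coding gene end, family number, copies in the family and genes in the cluster, with 95% Wilson intervals and a dashed line at 46.6% for all tRNA genes. Genes near a coding gene end stand at 81.8% and genes with a family number of 7 or more at 7.02%, while copy number and cluster size leave the intervals across the line.

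tRNA genes lie in groups, and some groups were called throughout while others held no call. With gaps of up to 10 kb the 429 genes fell into 80 clusters of 2 or more and 136 single genes. By cluster size the called shares were 43.4% (35.3 to 51.8) of single genes, 51.1% (43.9 to 58.2) in clusters of 2 to 4 and 43.1% (34.2 to 52.5) in clusters of 5 or more, with overlapping intervals. Without chromosomes 1, 6 and 7 they were 65.0% (52.4 to 75.8) of single genes and 79.4% (63.2 to 89.7) in clusters of 5 or more, and with gaps of up to 50 kb 55.6% and 44.7%. Of the 12 clusters of 5 or more, 3 had every gene called, 3 had none and 1 had a single called gene.

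The largest cluster, 24 genes from TRG-TCC4-1 to TRG-GCC4-1 in 40.5 kb of chromosome 1 (161440171 to 161480636), had 1 called gene, TRG-TCC4-1, by the distant call 149 bases before it. Its copies of TRD-GTC2, TRL-CAG1, TRG-GCC1, TRE-CTC1 and TRG-TCC2 come in a repeated order, and no call of any kind lay between its second gene and its last. Just beyond it, the cluster of 4 from TRG-GCC2-1 to TRN-GTT1-1 (161523847 to 161540314) had 3 called. The chromosome 16 cluster from TRR-CCG1-3 to TRP-AGG1-1 (3150674 to 3192060) had 7 of 14 called, with calls at 6 of its first 7 genes. The chromosome 6 cluster from TRR-TCG4-1 to TRW-CCA3-2 (26299677 to 26331515) had 6 of 12, among them the initiator genes TRX-CAT1-3 and TRX-CAT1-4.

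The next clusters by size gave opposite pictures. On chromosome 11 all 8 genes from TRV-TAC1-1 to TRF-GAA2-1 (59550629 to 59566452) were called, namely TRV-TAC1-1, TRV-TAC2-1, TRR-TCT3-2, TRL-TAA3-1, TRK-TTT5-1, TRF-GAA1-3, TRK-TTT3-4 and TRF-GAA2-1, genes for 5 amino acids. On chromosome 6 none of the 8 alanine and phenylalanine genes from TRA-TGC1-1 to TRF-GAA4-1 (28789770 to 28823389) was called. On the short arm of chromosome 17 a cluster of 7 from TRW-CCA1-1 to TRI-AAT4-1 (8220869 to 8227064) and one of 5 from TRK-TTT3-5 to TRG-GCC2-6 (8119155 to 8125816) had all genes called. In that megabase 17 of 18 tRNA genes were called (94.4%, 74.2 to 99), with leaders of 3 to 9 bases.

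**Figure D4:**
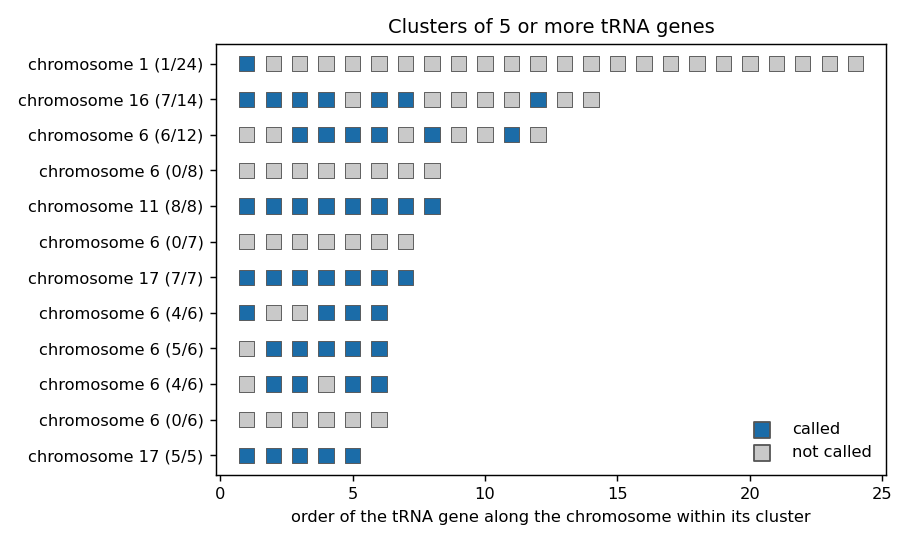
The 12 clusters of 5 or more tRNA genes, 1 row each with its chromosome and called over total genes, and genes as squares in chromosome order (x axis, rank within the cluster), blue where called and grey where not. The row of 24 on chromosome 1 holds 1 blue square, the rows of chromosomes 11 and 17 are all blue, and 3 rows of chromosome 6 are all grey.

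Chromosome 6, with 154 tRNA genes, changed along its length. From 26 to 27 Mb 20 of 44 were called (45.5%, 31.7 to 59.9), from 27 to 28 Mb 38 of 56 (67.9%, 54.8 to 78.6) and from 28 to 29 Mb 3 of 44 (6.82%, 2.35 to 18.2), namely TRS-GCT5-1, TRT-TGT1-1 and TRT-CGT1-1. A run of 40 genes in a row, from TRI-TAT3-1 to TRL-AAG3-1 (28537590 to 28989083, 451 kb), had no called member. No call of any kind lay in that span, where neither of 2 protein-coding genes was called. In the span of the 23 uncalled genes on chromosome 1 (161440825 to 161480636) there was likewise no call. On chromosome 7, 16 genes in a row from TRC-GCA9-2 to TRC-GCA21-1 (149331129 to 149664895, nearly all cysteine) were uncalled, but this span held 7 other calls and 1 of its 2 coding genes was called. These runs were found by their lack of calls, and whether reads can be placed in them was not tested.

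Of the 229 uncalled tRNA genes, 204 had no call of either strand within 1000 bp. Calls of 1 strand are at least 251 bp apart in the lists. Another tRNA gene lay within 250 bp of 4 uncalled and 8 called tRNA genes. The parts of this spacing and of the uncapped 5' end in the missing calls were not tested.

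Nearness to a coding gene end went with the call. Of the 55 tRNA genes with a protein-coding gene end within 1000 bp, 45 were called (81.8%, 69.7 to 89.8), against 155 of 374 others (41.4%, 36.6 to 46.5). Outside chromosomes 1, 6 and 7 the shares were 80.9% (67.5 to 89.6, 38 of 47) and 62.8% (53.9 to 70.9), intervals that overlap, and on these 3 chromosomes 7 of 8 and 31.2% (25.8 to 37.2). The median leader was 6 bases in both classes. Near a coding gene end 42 of the 45 calls lay 2 to 10 bases before the tRNA gene, and the other 3 were those of TRE-TTC1-2, TRH-GTG1-8 and TRH-GTG1-9. Where the tRNA gene lay inside a protein-coding gene 23 of 43 were called (53.5%), inside a long noncoding RNA gene 27 of 57 (47.4%) and outside both 150 of 329 (45.6%), with overlapping intervals. The order of these shares differed between the chromosome groups, which were chosen after the values were seen. Outside chromosomes 1, 6 and 7 the share was 91.7% (74.2 to 97.7, 22 of 24) inside long noncoding RNA genes. There it was 57.6% (40.8 to 72.8, 19 of 33) inside protein-coding genes and 65.8% (56.5 to 73.9) outside both. On chromosomes 1, 6 and 7 the shares were 15.2% (6.65 to 30.9), 40.0% (16.8 to 68.7, 4 of 10) and 35.3% (29.3 to 41.9) in the same order. Several of the 24 genes are neighbours in a single host, as in LOC102723575 on chromosome 11 and LINC00324 on chromosome 17. They are not independent cases, and the intervals do not include this.

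At 22 tRNA genes both the tRNA start and the start at the nearby coding gene end were called. TRR-TCT1-1 lay 494 bp from the end of BCAR3, called 68 bases inside that gene, and TRX-CAT1-1 257 bp from ILF2, called 5 bases inside. TRG-GCC2-1 lay 623 bp from the heat shock gene HSPA6 and TRV-CAC1-5 814 bp from the ubiquitin ligase gene TRIM41, each of which was called 1 base outside its end. TRR-ACG2-1 was 325 bp from the phosphatase gene SACM1L and TRX-CAT1-2 992 bp from the histone gene H4C8, both called on the annotated base. TRR-ACG1-2 and TRV-CAC1-6 lay 796 and 240 bp from the chromatin protein gene HMGN4, called 39 bases inside, and TRR-CCT4-1 lay 565 bp from the readthrough gene FMC1-LUC7L2.

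The coding gene and the tRNA gene did not need to be called together. At 23 called tRNA genes no coding end within 1000 bp had a call of its own, as for TRH-GTG1-9, 35 bp from SHF on the opposite strand. TRP-TGG3-2, 90 bp from ANG and in the same direction, is another. There a call on the annotated ANG start could not be listed as well, since calls of 1 strand are at least 251 bp apart. The part of this spacing in the 23 was not tested. Conversely TRE-CTC1-7 was uncalled 797 bp from the called NCOA7. The coding end was called at 25 of the 55, and the tRNA gene was called at 22 of these (88%, 70 to 95.8) and at 23 of the other 30 (76.7%, 59.1 to 88.2). For 38 called tRNA genes with a coding strand in the table, the tRNA call ran with the nearest coding gene in 17 and against it in 21. TRL-AAG2-4, outside the naming rule, lies 188 bp before the polymerase III subunit gene POLR3E, in the same direction. The tRNA gene was called 7 bases before its start and POLR3E 24 bases inside its own.

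Few tRNA starts had a partner running the other way. An opposite-strand call 0 to 300 bp upstream, the divergent arrangement common at coding promoters, was found for 39 of the 200 (19.5%, 14.6 to 25.5), at a median distance of 144 bp, whereas over all called genes the share was 51.4% and for protein-coding genes 51.9% (50.7 to 53.0). Called snRNA genes had 15.6% (6.86 to 31.8) and snoRNA genes 4.60% (1.80 to 11.2). Of the 39 partners, 4 were inward calls of another tRNA gene, 3 lay at a coding gene end and 32 at neither. Near a coding gene end 10 of 45 had a partner (22.2%) and elsewhere 29 of 155 (18.7%), with overlapping intervals. A convergent call within 300 bp downstream was found for 3.

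**Figure D5:**
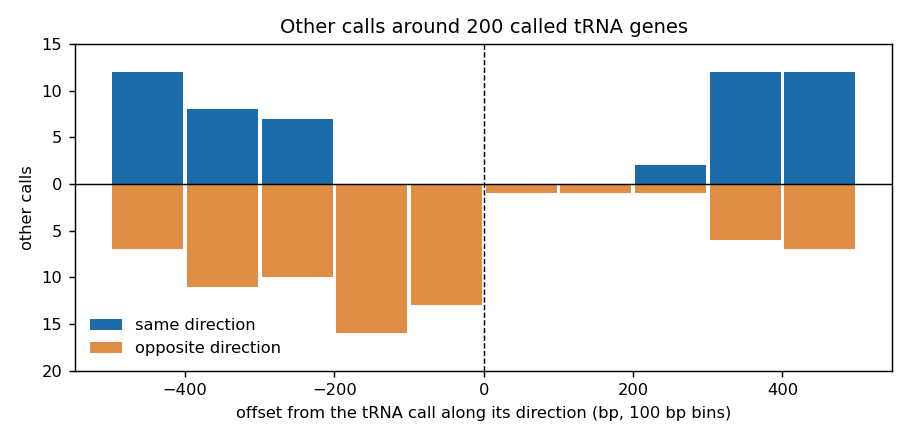
Other calls around the 200 called tRNA genes in bins of 100 bp (x axis, offset from the tRNA call along its direction), with calls of the same direction above and of the opposite direction below the zero line (y axis, number of calls). Opposite calls number 13 and 16 in the 2 bins before the tRNA call and 1 in each of the 3 bins after it, and calls of the same direction cannot lie closer than 251 bp.

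Calls that point away from the gene were counted up to 200 bp outside the gene ends, whereas inward calls were also read inside the gene. Outward calls lay outside an end of 27 of the 200 called tRNA genes (13.5%, 9.45 to 18.9) and of 7 of the 229 uncalled (3.06%, 1.49 to 6.17). In all 7.93% of tRNA genes had one, the same level as the 7.95% of all gene entries. Each of the 27 called genes also had a divergent partner as counted above, so the outward calls are not a separate background.

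The genes of the tRNA pathway were mostly called. Of 18 polymerase III subunit genes 16 were called (88.9%, 67.2 to 96.9), including the catalytic POLR3A and POLR3B, and the uncalled were POLR3G, the isoform counterpart of the called POLR3GL, and POLR1D. Of 18 initiation factors and regulators 16 were called, among them the 6 TFIIIC subunit genes GTF3C1 to GTF3C6, TBP, the repressor MAF1 and SSB, which encodes the La protein that binds the ends of new polymerase III transcripts. BRF1 and BDP1, both parts of TFIIIB, had no inward call. The rule reads only the outer ends of a gene entry. A start more than 200 bp inside is not counted, so an uncalled gene may still have one. Of 21 tRNA processing genes 17 were called (81.0%, 60.0 to 92.3), among them ELAC2, and those without a call included RPP21, TSEN34 and TSEN54. Over all protein-coding genes 38.2% were called, and no test of the lists was run.

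Other polymerase III transcripts were called at 8 of 19 listed genes (42.1%, 23.1 to 63.7), against 16.4% of all gene entries. Of the 8, 5 had the call 2 to 10 bases before the gene, against 6.36% of all called genes. Named by alphabet are the first 4 of each kind. RN7SK, the RNA that holds the elongation factor P-TEFb inactive, was called 5 bases before the gene, and the U6 spliceosomal RNA genes RNU6-2 and RNU6-9 were called 5 and 4 bases before. The Y RNA gene RNY1 was called on its first base. Outside the naming rule, the Y RNA gene RNY5 was called 49 bases inside and the vault RNA gene VTRNA1-3 1 base before. BCYRN1, RMRP, RN7SL1 and RN7SL2 were not called. Several of these genes have near-identical copies, so that a lack of a call is uncertain.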

How the data were processed

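PRO-cap was run on 2 biological replicates of wild-type HUDEP-2. Per the submitters' processing notes, the build was hg38 and the tools were deepTools 3.5.4, SAMtools 1.17, BWA 0.7.16a and Picard. The calling threshold, the handling of multiply placed reads and the merging of replicates were not stated there or in the labels. The authors deposited 1 list of calls per strand, with other values than measurements (positions), and a score of 0 for each call.

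Of the calls, 26332 lay on chromosomes 1 to 22 and X. Of the RefSeq entries (GRCh38.p14), 679 on other scaffolds, 14 of them tRNA genes, were removed. A call past the far gene end was not counted as pointing in. Partners lay within 300 bp, clusters had gaps up to 10 kb and coding gene ends counted within 1000 bp. Analyses used Python 3.11.15, pandas 2.3.3, NumPy 2.4.6 and SciPy 1.17.1, and the steps were tested on simulated data. Depth is unknown, and no test across samples was possible. Members, lists and rules were chosen with earlier results of these data known. Named were the selenocysteine genes, anticodons of at least 3 genes with all or none called, the 5 calls farthest from the median and the first 5 at it, genes with calls at both ends, the first 10 with a called coding neighbour, the 5 largest clusters and listed genes without a call, a few of which are not reported here. Alternatives were windows of 50, 100 and 500 bp and other choices of genes, gaps and distances.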

Additional observations from a re-analysis of the deposited data

How the results depend on the processing

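Of 93 alternative values, 72 stayed within the 95% interval of the reported value (for the median position, within its quartiles) and 21 moved beyond it. The 72 include the removal of nuclear-mitochondrial and undetermined entries, which took out no gene (200 of 429 called) and so could not move. The share of called tRNA genes ran from 44.2% to 50% over all its alternatives, and the median start stayed 6 bases before the gene. With windows of 50, 100 and 500 bp, called genes with an outward call made up 1.02%, 6.06% and 38.6%, protein-coding genes were called at 32.1%, 36.0% and 41.4% and all genes at 13.4%, 15.2% and 18.2%. With a window of 50 bp 100% of called tRNA genes had calls at 1 end only, and with 500 bp 91.0%. At 500 bp 90.5% of nearest calls lay 2 to 10 bases before the gene. Divergent partners within 150 and 500 bp were found for 10.5% and 28.0%. With cluster gaps of 50 kb 55.6% of single genes were called. Without chromosomes 1, 6 and 7, chosen after seeing the data, the shares were 63.2% for single-gene families, 64.3% for families of 5 or more, 65.0% for single genes, 79.4% for clusters of 5 or more and 62.8% away from coding gene ends. At the annotated gene start 100% of the 10 bases read were purines. The cause of these shifts was not tested, beyond the wider or narrower window itself. No paired analysis was possible because the calls name no replicate, and for the same reason no replicate was left out. A restriction to the 5' end by strand was not run, since the gene table gives no strand for tRNA genes. No stricter threshold was tried because each score is 0.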

Other observations

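Outside the nuclear genome, the 4 calls on the mitochondrial genome all lay at the ends of mitochondrial tRNA genes and pointed into them, among 22 such genes. TRNF (phenylalanine) was called at 577, TRNY (tyrosine) at 5891 and TRNP (proline) at 16023, each on the gene's first base in the direction of the call, and TRNS2 (serine) at 12206, 1 base before the gene. These genes lie in long transcripts that are cut at tRNA ends, and whether the calls mark starts or cut ends was not tested.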
